A study of Sus scrofa with 6 samples.

Results

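The protein components of the cytosolic ribosome were followed in pig nuclear transfer embryos and in the cells that gave their nuclei. A member is a gene whose single annotated symbol begins with RPL or RPS and a digit, begins with RPLP, or is RPSA. S6 kinase genes (RPS6K), the binding protein gene RPS19BP1 and paralogs of ribosomal proteins were left out, and the paralogs are given in a sentence of their own. This gave 58 genes of the 6765 with a single symbol on the array, 34 of the large and 24 of the small subunit, each represented by the probe set (the group of short probes that reports 1 transcript) with the highest mean over the 6 arrays.

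In nuclear transfer an enucleated oocyte receives the nucleus of a cultured cell. Here the donor cells were a fibroblast culture established from an adult Meishan pig, and the recipient oocytes came from a slaughterhouse. The embryos were injected with an antibody against DJ-1 (anti-DJ1, n = 2 arrays), were injected with control IgG (n = 2) or received no injection (n = 1), and each embryo sample pooled 23 to 26 embryos taken 28 h after transfer, around the 2-cell stage. The donor cells gave 1 array. All of the embryos thus carry a nucleus of the same donor line in slaughterhouse cytoplasm, and no embryo made by fertilisation is in the series. The trial was read from the replicate number in the sample titles. By that number, trial 1 holds 1 array of every group, and trial 2 repeats the anti-DJ1 and IgG embryos with separate samples. The place of the non-injected and donor cell arrays in trial 1 is inferred from their titles alone. The series asks what DJ-1, a redox-sensitive protein, does in the early cleavage of such embryos.

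Ribosomal proteins assemble with ribosomal RNA into a small subunit, which reads the messenger RNA, and a large subunit, which joins the amino acids. Growing cells make them in near-equal amounts, and their messenger RNAs start with a run of pyrimidines (the TOP motif) through which growth signals by way of mTOR and LARP1 set their translation. An oocyte carries a store of ribosomes and messenger RNA, and the early cleavage embryo uses that store until its own genome becomes active.

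Each array received 50 ng of total RNA and was scaled to a trimmed mean signal of about 499.8, so a level is relative to the other transcripts of that array and is not an amount per cell, and fewer cells of a type cannot be told apart from less RNA per cell. The highest Tag control, a probe set with no target in the pig, lay between 21.4 and 47.0 and serves here as the background. Between 48 and 52 of the 58 members lay above it on the embryo arrays and 57 on the donor cell array. The labels were checked against marker genes. All 9 measured oocyte and embryo markers were higher in embryos than in donor cells, with summed signals of 71599 to 113111 against 256. The 9 measured fibroblast markers summed to 93925 in donor cells against 2754 to 3504 in embryos, carried by VIM, FN1, THY1 and SPARC, whereas LUM, POSTN and DCN lay below the Tag controls on the donor cell array, and COL1A2 and COL3A1 were at 459 and 584 there against 210 to 355 and 160.3 to 406 in embryos. DCN was higher in embryos, at 54.7 to 111. The keratin genes KRT8 and KRT18 were at 9907 and 2103 in donor cells. Of 9 epithelial, endothelial and blood markers measured, 6 lay above the Tag controls on the donor cell array. On each embryo array 6 or 7 did. In donor cells EPCAM was at 3128, CDH1 at 749 and HBB at 922. The embryos had 3734 to 5574, 3057 to 3694 and 982 to 2045 for these genes in that order. CDH5, PTPRC and CD14 were not above the Tag controls in donor cells. Of 10 cumulus and granulosa markers measured, 4 or 5 lay above the Tag controls on each embryo array. Among them INHBA was at 975 to 1495, FST at 323 to 500, INHA at 40.3 to 226 and KRT8 at 60.9 to 211 in embryos, whereas FSHR was at 1.01 to 7.99. The 3′ over 5′ signal ratio of the EF1A control, which rises when the labelled RNA is short, was 23.9 to 30.0 on the embryo arrays of trial 1, 8.20 and 9.34 on those of trial 2 and 4.23 on the donor cell array. That of actin was 258 to 665, 45.0 and 68.4, and 141 in the same order.

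Of the 5 comparisons made, that of embryos with donor cells gave the members their largest median difference. All 52 members bright enough to be tested were lower in embryos, by a median of -4.70 on the log2 scale, or 26.1-fold, whereas 36.5% of all 14399 probe sets tested were lower and 36.4% higher and their median was -0.02. With the trial as a term this estimate equals the embryo arrays of trial 1 minus the donor cell array, so the arrays of trial 2 do not enter its size. With the 2 embryo arrays of trial 2 alone the median was -3.78, and all 52 values were below 0, which holds for 46.5% of all probe sets. Of the 52 members, 50 would also pass the filter on low values from their embryo arrays alone. The other 2, RPL13 and RPL23, passed only through the donor cell array and so had to be lower in embryos. RPS27A alone turned to the other side, at 0.041, when the arrays were set to a common 75th percentile. The median was -5.07 for the 29 large subunit and -4.37 for the 23 small subunit genes. Single genes ran from RPL9 at -7.65 to RPS27A at -0.59. These differences are on the scale of log2(signal + 4.57), from a limma fit across all 6 arrays with Benjamini-Hochberg adjustment over all probe sets tested and a threshold of 0.05. They rest on 1 donor cell array, which the fit assumes to vary like the replicated arrays. The EF1A ratio of 8.20 to 30.0 in embryos against 4.23 in donor cells differed between the same arrays, and its part in the result was not tested.

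Counted straight from the arrays, 57 of the 58 members had all 5 embryo arrays below the donor cell array. This holds for 39.4% of all 23999 probe sets. For 52 of the 58 the donor cell signal was at least 2-fold above the highest embryo array, which holds for 24.6% of all 23999 probe sets, and for 36 at least 8-fold, which holds for 8.70%. Among probe sets with a donor cell signal of at least 1000, 35 of 53 members (66.0%) and 1093 of 3755 probe sets overall (29.1%) reached 8-fold. The median signal of the 58 members was 167 to 188 on the embryo arrays of trial 1, 305 (IgG) and 319.6 (anti-DJ1) on those of trial 2 and 6731 in donor cells. Within each array the median member stood at percentile 67.4 to 73.3 of all probe sets in embryos and at 98.1 in donor cells. Summed, the members made up 0.301% to 0.494% of the array's total signal in embryos and 2.95% in donor cells. By all 3 summaries the donor cells lay outside the range of the embryos. The 18S ribosomal RNA control had signals of 3296 to 9171 in embryos and 1194 in donor cells. Whether that control follows the amount of ribosomal RNA after this labelling was not tested.

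**Figure D1:**
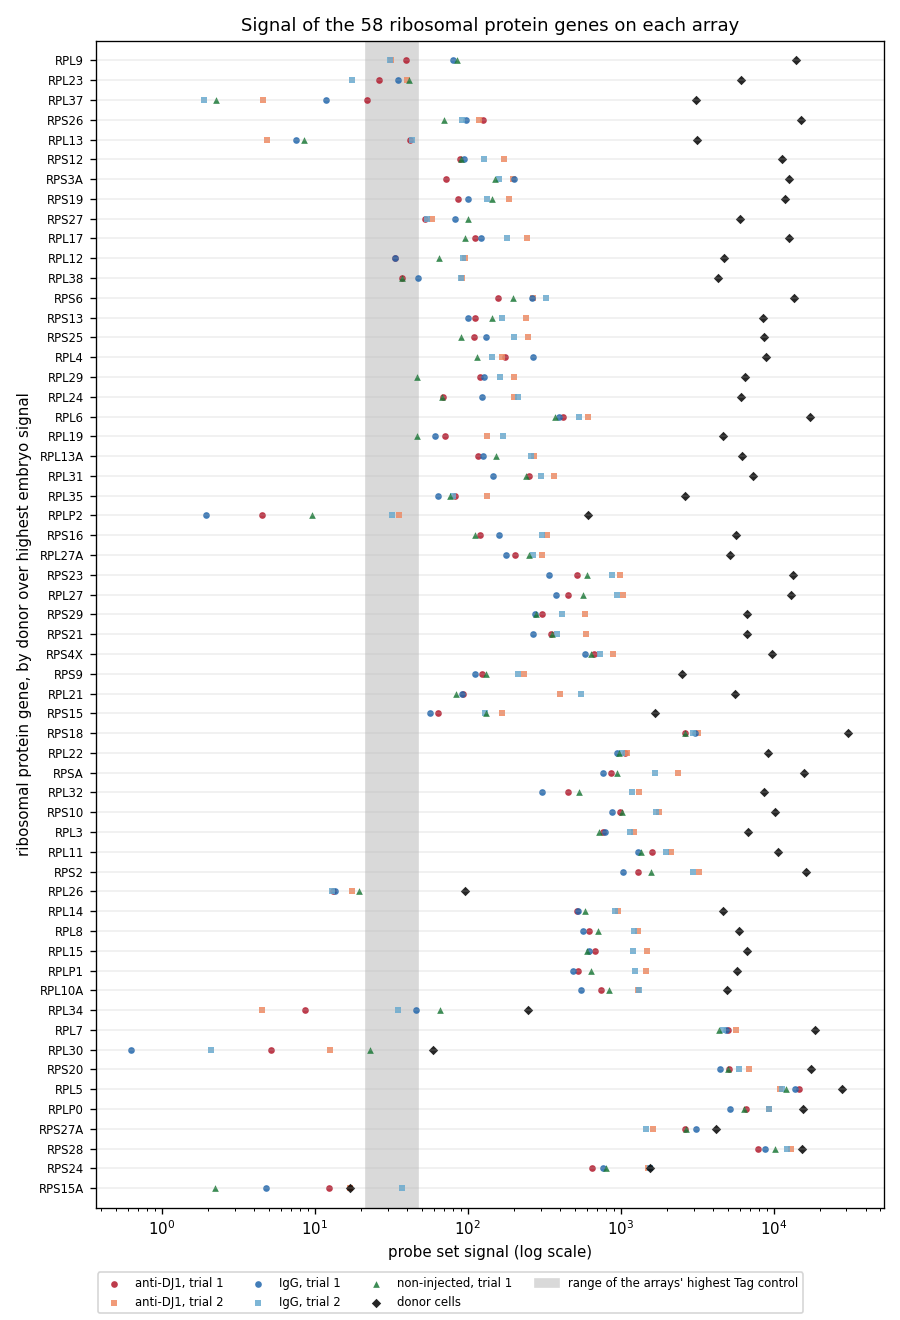
Signal of the chosen probe set of each of the 58 genes on the 6 arrays (log axis), ordered by the donor cell signal over the highest embryo signal; circles and the triangle are embryos of trial 1, squares embryos of trial 2, black diamonds donor cells, and the grey band spans the arrays' highest Tag controls of 21.4 to 47.0. The donor cell signal lies to the right of every embryo signal for 57 genes, the exception being RPS15A at the bottom. The same holds for 39.4% of all 23999 probe sets.

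The genes with the largest differences were near the background in embryos and bright in donor cells. RPL9, a large subunit protein near the base of the stalk, had signals of 39.3 and 31.5 in anti-DJ1, 80.0 and 31.0 in IgG and 85.3 in non-injected embryos, against 13962 in donor cells (values of trial 1 before those of trial 2), a difference of -7.65 ± 0.36 (SE, limma, adjusted p = 1.38e-09). It was above the Tag controls on 3 of the 5 embryo arrays. RPL23, which lies at the contact with the small subunit, had signals of 26.1 and 40.2 in anti-DJ1, 34.8 and 17.4 in IgG and 41.5 in non-injected embryos, against 6084 in donor cells, and was above the Tag controls on 2 embryo arrays (log2 difference -7.32 ± 0.48). RPL13 was above them on 1 embryo array, with signals of 41.8 and 4.87 in anti-DJ1, 7.54 and 43.4 in IgG and 8.54 in non-injected embryos, against 3143 in donor cells (log2 difference -7.34 ± 0.94). The embryo levels of these genes are therefore close to what the array can measure, and their folds are imprecise. Since RPL23 and RPL13 entered the test only through the donor cells, their values are a description.

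Other members were above the Tag controls on all 5 embryo arrays and still far below the donor cells. RPS26, which lines the exit of the messenger RNA channel, had signals of 126 and 118 in anti-DJ1, 97.4 and 91.5 in IgG and 69.9 in non-injected embryos, against 15059 in donor cells, a difference of -7.24 ± 0.25 (limma, adjusted p = 8.60e-11). RPS12 had signals of 88.8 and 172 in anti-DJ1, 93.9 and 128 in IgG and 90.1 in non-injected embryos, against 11334 in donor cells (log2 difference -6.89 ± 0.26). RPS19, the gene most often mutated in Diamond-Blackfan anaemia, had signals of 85.8 and 187 in anti-DJ1, 101 and 133 in IgG and 145 in non-injected embryos, against 11846 in donor cells (log2 difference -6.72 ± 0.26). For these 3 genes the donor cell signal was 63.5-fold or more above the highest embryo array.

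The other members among the 12 largest differences were RPL17 (-6.79), which lines the exit tunnel of the growing protein, RPL12 (-6.67) at the base of the stalk, RPL38 (-6.58), RPS3A (-6.56), RPS25 (-6.26) and the zinc finger protein RPS27 (-6.24). RPL12, at 33.3 to 96.3 in embryos, and RPL38, at 37.2 to 91.4 and above the Tag controls on 4 embryo arrays, were near the background there. RPS6, the small subunit protein that S6 kinases phosphorylate, had signals of 158 and 266 in anti-DJ1, 263 and 327 in IgG and 198 in non-injected embryos, against 13538 in donor cells (log2 difference -6.04 ± 0.21). RPSA, also known as the laminin receptor, had signals of 861 and 2370.3 in anti-DJ1, 764 and 1683 in IgG and 949 in non-injected embryos, against 15819 in donor cells (log2 difference -4.20 ± 0.15). Both were lower on every embryo array than in the donor cells, and RPSA was higher on both arrays of trial 2 than on any of trial 1. In trial 2 RPSA differed from the donor cells by -2.98 and RPS6 by -5.50.

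The smallest differences belonged to genes that were bright on every array. RPS27A, made as a fusion of ubiquitin with a small subunit protein, had signals of 2620.2 and 1628 in anti-DJ1, 3111 and 1471 in IgG and 2657 in non-injected embryos, against 4209 in donor cells. Its difference was -0.59 ± 0.15 (limma, adjusted p = 0.00357), which turned to 0.041 (adjusted p = 0.819) when the arrays were set to a common 75th percentile. RPS28 had signals of 7931 and 13032 in anti-DJ1, 8811 and 12157 in IgG and 10287 in non-injected embryos, against 15464 in donor cells (log2 difference -0.79 ± 0.12), which became -0.15 (adjusted p = 0.276) at that setting and no longer passed. All embryo arrays were below the donor cells for both genes, by 1.35-fold for the highest embryo array of RPS27A and 1.19-fold for that of RPS28.

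RPL5 and RPL11 bind a small ribosomal RNA together and, when free of the ribosome, the p53 regulator MDM2. RPL5 had signals of 14695 and 10939 in anti-DJ1, 13786 and 11404 in IgG and 12036 in non-injected embryos, against 28249 in donor cells (log2 difference -1.07 ± 0.11, adjusted p = 2.38e-06, limma). RPL11 had signals of 1604 and 2131 in anti-DJ1, 1302 and 1976 in IgG and 1352 in non-injected embryos, against 10754 in donor cells (log2 difference -2.92 ± 0.14, adjusted p = 1.94e-09). The partners were both lower in embryos, RPL11 by the larger margin.

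RPS24 had signals of 648 and 1514 in anti-DJ1, 768 and 1561 in IgG and 804 in non-injected embryos, against 1563 in donor cells. Its arrays of trial 2 were level with the donor cells, whereas those of trial 1 were about 2-fold lower, and the fitted difference of -1.08 ± 0.16 is that of trial 1. The stalk, which recruits translation factors to the large subunit, is built of RPLP0, RPLP1 and RPLP2. RPLP0 had signals of 6641 and 9388 in anti-DJ1, 5159.9 and 9293 in IgG and 6423 in non-injected embryos, against 15539.5 in donor cells (log2 difference -1.36 ± 0.13). RPLP1 had signals of 524 and 1459 in anti-DJ1, 485 and 1247 in IgG and 639.9 in non-injected embryos, against 5789.9 in donor cells (log2 difference -3.40 ± 0.16). RPLP2 fell below the filter on the mean of the 6 arrays and was not tested. It was above the Tag controls on no embryo array, at 1.95 to 35.2, against 614 in donor cells, at least 17.1-fold higher there. All 3 stalk genes were lower on every embryo array than in the donor cells.

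Beside RPLP2, 5 members were too dim over the arrays to be tested. RPL37 was at 1.87 to 21.8 in embryos and 3111 in donor cells, at least 86.4-fold higher there. RPL26 was at 13.0 to 19.5 against 95.9, RPL30 at 0.63 to 22.9 against 59.4 and RPL34 at 4.52 to 65.3 against 246, of which only RPL34 was above the Tag controls on any embryo array, on 2. The bounds for RPL26 and RPL30 were at least 2.66-fold and at least 1.65-fold. RPS15A, at 2.23 to 37.1 in embryos and 16.9 in donor cells, was not above background on any array and gives no fold.

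**Figure D2:**
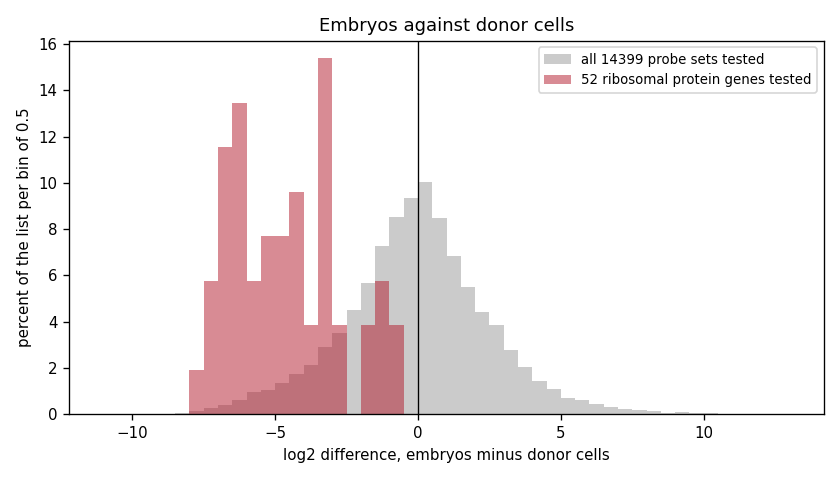
Distribution of the log2 difference of embryos minus donor cells, in bins of 0.5, as a percent of all 14399 probe sets tested (grey) and of the 52 ribosomal protein genes tested (red). All 52 genes lie below 0 (RPS27A at 0.041 under a common 75th percentile; RPL13 and RPL23 were tested only through the donor cell array), with a median of -4.70, whereas the median of all probe sets is -0.02.

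How far the embryos lay below the donor cells depended on the probe set read. Of the 58 genes, 24 had more than 1 probe set and 17 more than 1 that was tested. RPS27A differed by -0.59 at its brightest probe set and by -4.997 at its other one. RPLP0 differed by -1.36 and -4.17, and RPS18 by -3.46 at its brightest and by -5.63 and -5.65 at the others. Conversely, RPL12 differed by -6.67 at its brightest probe set and by -1.90 and -1.98 at the others, and RPS25 by -6.26 and -2.19. RPS28 was the only one of the 17 whose probe sets differed in sign, with -0.79 and 0.15. Over all 73 member probe sets tested the median was -4.60, with 71 lower and 0 higher past the threshold. Like RPL13 and RPL23 above, some of the dimmer ones passed the filter only through the donor cell array and so had to be lower. These are the dimmer probe sets of RPLP0, RPL17, RPL32, RPL7 and RPL24, 1 of RPL12 (-1.90) and 1 of RPL23. The annotation does not say which transcript region or pseudogene copy a probe set reads. Near-identical copies of ribosomal protein genes are common in mammalian genomes, and 7 of the 58 chosen probe sets carry the array maker's mark for probes shared between transcripts. The 45 tested genes without that mark had a median of -4.82.

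**Figure D3:**
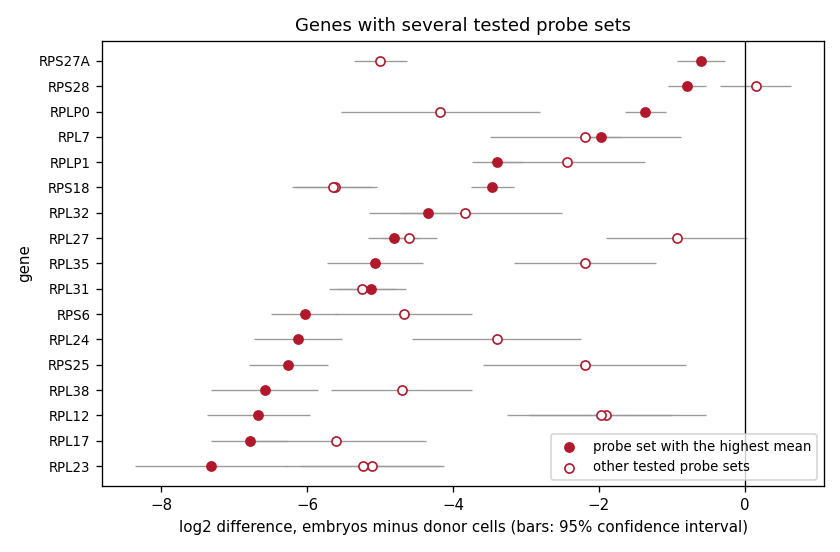
Log2 difference of embryos minus donor cells for the 17 genes with several tested probe sets, filled circles for the probe set with the highest mean, open circles for the others, and bars for the 95% confidence intervals. Probe sets of RPS27A (-0.59 and -4.997; the first turned to 0.041 under a common 75th percentile), RPLP0, RPL12 and RPS25 lie far apart, and 1 of RPS28 lies above 0. Some open circles, that of RPLP0 among them, were tested only through the donor cell array.

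The paralogs that the array carries differed among themselves. RPL26L1, a close copy of RPL26, was higher in embryos, with signals of 3809.8 and 6290.2 in anti-DJ1, 3209.7 and 6713 in IgG and 4733 in non-injected embryos, against 1787 in donor cells, a log2 difference of 1.11 ± 0.14 (limma, adjusted p = 1.21e-05). RPL22L1 differed by -6.34, RPL36AL by -4.82, RPL7L1 by -3.73 and RPS27L by -1.51, and each of these 4 passed as lower. Only RPL26L1 of the 5 was higher on every embryo array than in donor cells.

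Other genes around the ribosome were read from lists. Of 18 measured genes whose messenger RNAs carry a TOP motif or whose proteins work at the ribosome, 14 were lower in embryos and 2 were higher, with a median of -2.54. RACK1, a scaffold on the small subunit, differed by -6.62, the poly(A) binding protein PABPC1 by -6.36, the elongation factor subunit EEF1G by -6.07 and TPT1 by -5.50. BTF3, part of the complex that meets new proteins at the tunnel exit, rose by 1.63 and the nucleolar protein NPM1 by 0.66, whereas EIF3E differed by -0.04 and did not pass. Fibroblast marker VIM is also on this list, at -6.34. Of 10 tested genes that control the synthesis of ribosomal proteins, 3 were higher in embryos (LARP4 by 2.16, the mTOR activator RHEB by 1.93 and CNBP by 1.15) and 4 lower. The growth regulator MYC differed by -6.49, and was above the Tag controls on 1 embryo array, and EIF4EBP2 by -4.07. Of the 4 lower genes, MYC and TSC2 passed the filter only through the donor cell array and so had to be lower. The ribosomal proteins of mitochondria, encoded by other genes, had 29 of 55 lower and 17 higher, with a median of -0.65.

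The scale of the arrays and the trial move the size of the embryo to donor difference. Set to a common 75th percentile, the median over all probe sets moved from -0.02 to 0.59, the calls over all probe sets from 5248 higher and 5253 lower to 6690 and 3917, and the median of the members to -4.07, with 50 of 52 lower. Quantile normalization moved the median of all probe sets to 0.40 and left 52 lower members.

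The members also differed between the trials. In trial 2, 37 of 52 were higher than in trial 1 and 2 were lower, by a median of 0.74 on the log2 scale, or 1.67-fold, against 18.9% higher and 13.4% lower and a median of 0.14 over all probe sets tested. Within the anti-DJ1 embryos the members' median was 0.86 and within the IgG embryos 0.60, and 41 of 52 were higher in both, which holds for 45.9% of all probe sets. The large subunit genes had a median of 0.78 and the small subunit genes of 0.73. Among mitochondrial ribosomal protein genes 21 of 55 were higher and 2 lower, and their median was 0.49. The EF1A control ratio of 23.9 and 24.2 in trial 1 and 8.20 and 9.34 in trial 2, and the actin ratio, changed between the same arrays, and their part in the difference was not tested.

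RPL21 had the largest difference between trials, with signals of 92.9 and 399 in anti-DJ1, 91.2 and 549.6 in IgG and 83.8 in non-injected embryos, or 2.29 ± 0.21 (SE, limma, adjusted p = 2.89e-05). RPL32 followed with 452 and 1327 in anti-DJ1, 306 and 1178 in IgG and 536 in non-injected embryos. Its difference was 1.74 ± 0.15 (limma, adjusted p = 2.50e-05). Its dimmer probe set, above the Tag controls on 2 embryo arrays, differed by 0.19 and did not pass. RPS2, at the entry of the messenger RNA channel, had 1303 and 3269.5 in anti-DJ1, 1035 and 2979 in IgG and 1569 in non-injected embryos, or 1.42 ± 0.12. In all 3 genes both arrays of trial 2 were above all 3 embryo arrays of trial 1. The next were RPLP1 (1.41), RPL12 (1.39, its other probe sets 0.01 and 0.11), RPSA (1.30), RPL27 (1.24), RPS15 (1.23), RPS16 (1.18), RPS23 (1.14) in the decoding centre, RPL19 (1.14) and RPL24 (1.12). RPLP0 rose by 0.67, RPS6 by 0.52 and RPL11 by 0.50. The dimmer probe set of RPLP0, above the Tag controls on 1 embryo array, differed by -1.17 within anti-DJ1 and by -1.72 within IgG embryos. Of the 17 genes with several tested probe sets, 5 had probe sets that differed in sign between trials.

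RPS27A and RPL5 went the other way. RPS27A had signals of 2620.2 and 1628 in anti-DJ1, 3111 and 1471 in IgG and 2657 in non-injected embryos, a difference of -0.88 ± 0.13 (limma, adjusted p = 0.000448), whereas its second probe set differed by 0.35 and did not pass. RPL5 differed by -0.35 ± 0.10 (adjusted p = 0.016), which became 0.038 (adjusted p = 0.775) after quantile normalization. RPL9 at -0.77, RPL4 at -0.48 and RPS27 at -0.21 were next lowest and did not pass. RPL7, RPL22 and RPS18, with 0.05, 0.08 and 0.12, did not pass either. The dimmer probe sets of RPS18 differed by 0.32 and 1.30 within anti-DJ1 and by 1.06 and 1.42 within IgG embryos, and that of RPL7 by -0.45 and -0.70.

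The differences of the members within anti-DJ1 and within IgG embryos correlated across genes at r = 0.45 (Spearman's rho 0.63, 52 genes) and at r = 0.80 (rho 0.73) without RPL13, which was above the Tag controls on 1 embryo array. Genes are not independent replicates, and both sets share their 2 trials. All of these calls depend on the mean-variance trend of the fit. Without it 0 of all 14399 probe sets passed, and so 0 members in either direction. With a common 75th percentile, the median over all probe sets moved to -0.09 and their calls to 1655 higher and 3199 lower from 2728 and 1923, while the members had 28 higher, 4 lower and a median of 0.50.

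**Figure D4:**
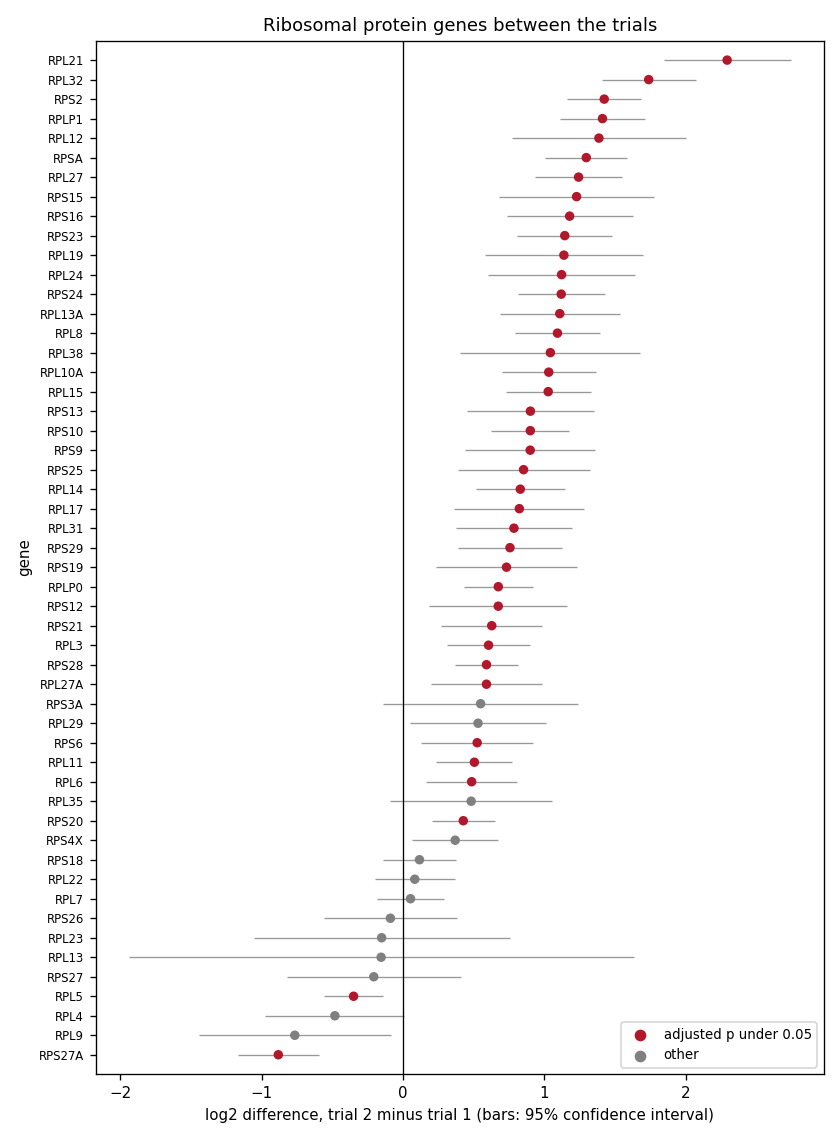
Log2 difference of trial 2 minus trial 1 for the 52 tested genes, with 95% confidence intervals as bars and red for an adjusted p under 0.05. The 37 genes higher in trial 2 reach from 0.43 to 2.29, and RPS27A and RPL5 are lower, RPL5 only without quantile normalization.

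Between anti-DJ1 and IgG embryos no member passed the test. The limma fit called 0 of 52 members and 0% of all probe sets, with 6 members and 838 probe sets at an unadjusted p under 0.05, and the lowest adjusted p of a member was 0.816. The members' median was 0.13, or 1.10-fold, with 0.10 in trial 1 and 0.15 in trial 2, and 36 of 52 were positive, as were 7073 of all 14399 probe sets. In both trials 25 members were higher in the anti-DJ1 embryos, which holds for 24.6% of all probe sets, 3 were lower in both, which holds for 26.8%, and 24 changed sides. At least 2-fold apart the same way in both trials were 0 members and 54 of all probe sets.

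The highest members were RPL35 at 0.53 ± 0.26, RPL31 at 0.53 ± 0.19, RPS21 at 0.50 ± 0.16, RPS23 at 0.39 ± 0.15 and RPL32 at 0.36 ± 0.15 (SE). RPL35 and RPL31 both lie near the exit of the protein tunnel. RPL35 had signals of 82.7 and 134 in anti-DJ1, 63.8 and 79.5 in IgG and 76.2 in non-injected embryos. RPL31 had 252 and 369 in anti-DJ1, 146 and 302 in IgG and 239 in non-injected embryos, and RPS21 350.4 and 593 in anti-DJ1, 268 and 382 in IgG and 354 in non-injected embryos. In each of these 3 genes the anti-DJ1 array was above the IgG array of its trial, and across trials the groups overlapped for RPL31 and RPS21 but not for RPL35. The dimmer probe set of RPL31 gave 0.61, that of RPL35 gave 0.05 and that of RPL32 gave -1.02. The one of RPL32 was above the Tag controls on only 2 embryo arrays, those of IgG.

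The lowest members were RPS3A at -0.57 ± 0.32, RPS6 at -0.50 ± 0.18, RPL9 at -0.46 ± 0.31, RPL24 at -0.46 ± 0.24 and RPS27 at -0.26 ± 0.28. RPS3A differed by -1.43 in trial 1 and 0.29 in trial 2, from signals of 71.6 and 197 in anti-DJ1, 200.05 and 161 in IgG and 151 in non-injected embryos. RPS6 differed by -0.72 and -0.29. RPS6 and RPL24 were lower in both trials, as was RPS24 by -0.24 and -0.04, whereas RPS3A, RPL9 and RPS27 were lower in trial 1 only. RPL13 differed by 1.94 in trial 1 and -2.35 in trial 2 and was above the Tag controls on only 1 of these arrays.

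Across the 52 genes, the differences of the trials correlated at r = -0.39 (rho 0.12), and at r = 0.13 (rho 0.19) without RPL13, against r = 0.02 over all probe sets tested. Of the 17 genes with several tested probe sets, 10 had probe sets that differed in sign. The median of the members followed which array was left out: it was 0.52 without the anti-DJ1 array of trial 1, -0.31 without that of trial 2, -0.24 without the IgG array of trial 1 and 0.42 without that of trial 2, in fits with no term for the trial. Among the TOP and ribosome-associated genes and the genes that control ribosomal protein synthesis, 0 of 18 and 0 of 10 passed in the limma fit.

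**Figure D5:**
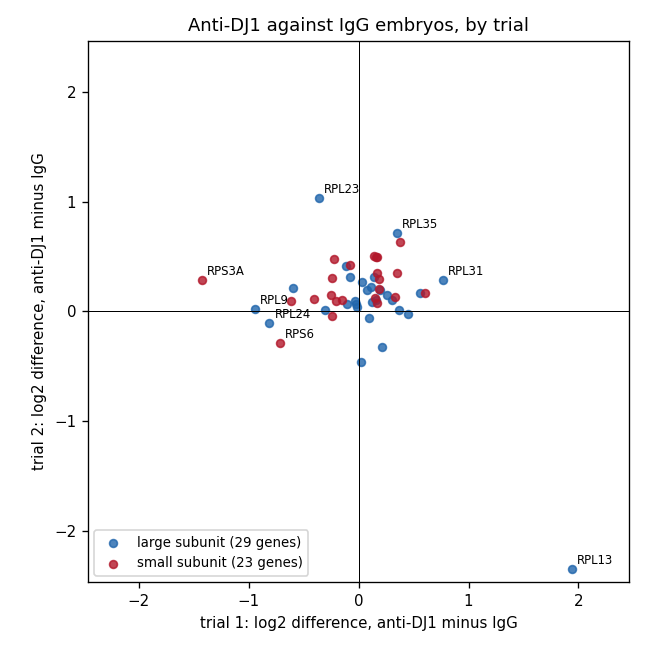
Log2 difference of the anti-DJ1 minus the IgG array in trial 1 (horizontal) and in trial 2 (vertical) for the 52 tested genes, blue for the large and red for the small subunit. Most points lie near 0, with medians of 0.10 and 0.15, and RPL13, near background, lies at 1.94 and -2.35.

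Injection itself was read against the single non-injected array, which both of the following comparisons share. In IgG against non-injected embryos 0 of 52 members passed in the limma fit, 14 had an unadjusted p under 0.05 and the median was -0.15, with 33 negative. Over all 14399 probe sets 0.917% were higher and 0.347% lower, 2493 had an unadjusted p under 0.05 and 7279 were negative. The lowest members were RPS15 (-1.21 ± 0.33), RPL12 (-0.87 ± 0.37), RPL32 (-0.70 ± 0.20, its dimmer probe set 1.78), RPS23 (-0.70 ± 0.20) and RPS19 (-0.68 ± 0.30). RPS15, near the decoding centre of the small subunit, had signals of 64.2 and 167 in anti-DJ1, 56.8 and 130.3 in IgG and 132 in non-injected embryos. The highest were RPL29 (1.26 ± 0.29, adjusted p = 0.0614, limma), RPL4 (0.99 ± 0.30), RPL13 (0.96 ± 1.08), RPL24 (0.64 ± 0.31, its dimmer probe set -0.31) and RPL19 (0.48 ± 0.34). RPL29, RPL13 and RPL19, at 46.8, 8.54 and 46.7, were not above the highest Tag control of 47.0 on the non-injected array. Nor was the dimmer probe set of RPL32, at 10.4. Within trial 1, RPL29 was at least 2.70-fold and RPL19 at least 1.29-fold higher in IgG embryos, and RPL13 gives no fold. The median was 0.22 without either anti-DJ1 array, 0.55 without the IgG array of trial 1 and -0.12 without that of trial 2, in fits with no term for the trial. Probe sets of 13 of the 17 genes with several tested differed in sign in this comparison.

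In anti-DJ1 against non-injected embryos 1 of 52 members passed, RPL29, and the members' median was -0.01 with 26 positive and 26 negative. Over all probe sets 1.26% were higher and 0.653% lower, and 7124 of 14399 were positive. RPL29, a small basic protein on the surface of the large subunit, had signals of 120.3 and 202 in anti-DJ1, 127 and 162 in IgG and 46.8 in non-injected embryos, a difference of 1.38 ± 0.29 (limma, adjusted p = 0.0404). The non-injected array was not above its highest Tag control of 47.0, so that the fold is a bound: within trial 1, RPL29 was at least 2.56-fold higher in anti-DJ1 embryos. Without a filter on low values RPL29 did not pass, where 71 of 23999 probe sets did. Nor did it pass without the mean-variance trend, or without the trial term on all arrays, where 0 of all 14399 probe sets passed. Fits without any 1 of the 4 anti-DJ1 and IgG arrays had no term for the trial and called almost no probe set, so they cannot decide it.

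The other members furthest apart were RPS26 at 0.80 ± 0.28, RPL4 at 0.80 ± 0.30, RPL13 at 0.75 ± 1.08 and RPL19 at 0.43 ± 0.34 on the higher side. RPS15 at -0.95 ± 0.33, RPL12 at -0.86 ± 0.37, RPL9 at -0.79 ± 0.41, RPS27 at -0.72 ± 0.37 and RPS3A at -0.61 ± 0.42 were on the lower side, and none of these passed. Within trial 1, RPL19 was at least 1.52-fold higher in anti-DJ1 embryos, and RPL13, with no embryo signal above 47.0, gives no fold. Also within trial 1 alone, both injected arrays were below the non-injected array for 23 of 52 members, which holds for 37.9% of all probe sets, and above it for 15, which likewise holds for 37.9%. The median was 0.72 without the anti-DJ1 array of trial 1, -0.016 without that of trial 2 and 0.34 without either IgG array, in fits with no term for the trial. Probe sets of 11 of the 17 genes with several tested differed in sign in this comparison. The EF1A ratio of the non-injected array was 30.0 and its actin ratio 665, the highest of the 6 arrays, and their part in these differences was not tested.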

How the data were processed

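RNA of 6 samples was hybridised to 1 Affymetrix Porcine Genome Array each, after a two-cycle biotin labelling, per the labels' protocols. The deposited values are probe set intensity on a linear scale, which the authors made with MAS5, per the submitters' processing notes. The MAS5 version, the scaling target and the presence calls were not given in any source used here.

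Of 24123 probe sets, 124 array controls were left out. The platform annotation gave 1 symbol to 10069, several to 198, which were not named, and none to 13732. All 58 members had the same symbol in RefSeq. Signals were set to log2(signal + 4.57), the 10th percentile of all signals, and the upper 60% by mean (14399 probe sets, mean signal above 39.6) were tested with limma 3.58.1 in R 4.3.3 (lmFit, eBayes with a mean-variance trend, two-sided, Benjamini-Hochberg, threshold 0.05), with group and trial as terms. The fit had 1 residual degree of freedom, and moderation added 10.7. Embryos minus donor cells is the mean of the 3 embryo groups minus the donor cell array, at the level of trial 1. The trial was taken to be the replicate number of the titles. It entered as a block because, in the design text, IgG embryos serve as the control within either trial. Also, deviations of same-trial anti-DJ1 and IgG arrays correlated at r = 0.588 across probe sets. The scripts were tested on simulated data. The number of arrays limits the precision, and only the separate samples of the 2 trials give a spread between replicates.

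The members and lists were chosen with earlier results of these data known. Named in each comparison are up to 5 members at either end and up to 12 past the threshold in each direction, with their other probe sets where these disagree in sign. RPLP0, RPLP1, RPLP2, RPS27A, RPSA, RPS6, RPL5 and RPL11 are also named against donor cells and, apart from the untested RPLP2, between trials. RPS24 in the anti-DJ1 comparison, and RPL7, RPL22 and RPS18 between trials, were named after their values were seen. No sequence was used here.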

Additional observations from a re-analysis of the deposited data

How the results depend on the processing

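For embryos minus donor cells, 45 to 71 members or member probe sets were lower under the alternatives run. These sets differ in size: 45 is of the 45 genes not marked as shared and 71 of 73 member probe sets. The members' median stayed negative. It was -4.07 with a common 75th percentile, -4.40 with no replicate block for the trial and -4.50 for the non-injected array alone. With the mean of each gene's probe sets it was -4.35, and for the embryo arrays of trial 2 -3.78. Leaving out 1 anti-DJ1 or IgG array gave -4.56 to -4.20. RPS27A reversed to 0.041 with the 75th percentile. Between trials, the median was 0.57 after quantile normalization and 0.50 with the 75th percentile. The number of lower members was 4 with the 75th percentile and 1 with no filter or with the mean of probe sets. Without the mean-variance trend 0 members were higher and 0 lower, and 0 of all 14399 probe sets passed. RPL5 reversed to 0.038 after quantile normalization and RPLP0 to -0.39 with the mean of probe sets.

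For anti-DJ1 minus IgG, leaving out 1 array, with no replicate block, took the median from -0.31 to 0.52, RPL24 from -1.19 to 0.28, RPS3A from -1.27 to 0.13, RPL32 from -0.60 to 1.33, RPS23 from -0.29 to 1.07, RPL9 from -1.09 to 0.16 and RPS27 from -0.54 to 0.020. The mean of probe sets reversed RPL32 (-0.33). For IgG minus non-injected, 1 member was higher with quantile normalization, the 75th percentile or a pseudocount at the 25th percentile. Over all 14399 probe sets 168, 203 and 282 were higher in these settings. In the upper 40% of probe sets 2 members were higher and 4 lower, as were 420 and 306 of all 9600. With no replicate block the median was 0.22 and RPL32 0.16, and the mean of probe sets gave RPL32 0.54. Leaving out 1 array took the median from -0.12 to 0.55, RPL32 from -0.80 to 1.13, RPL12 from -0.86 to 0.50, RPS23 from -0.81 to 0.55 and RPL13 from -0.11 to 1.87. For anti-DJ1 minus non-injected, 0 members were higher with no filter, where 71 of 23999 probe sets were called. With the mean of probe sets 0 were higher too, where 106 of 12767 genes and probe sets were called. With no trend or no replicate block 0 members and 0 of all 14399 probe sets passed. The fits with 1 of the anti-DJ1 and IgG arrays left out called almost no probe set and cannot decide this. The members' median in this comparison was 0.34 with no replicate block. Leaving out 1 array took it from -0.016 to 0.72, RPL12 from -0.87 to 0.54, RPL13 from -0.47 to 1.82, RPS15 from -0.99 to 0.32 and RPS3A from -1.03 to 0.37. The cause of these changes was not tested. Fits without 1 array could hold no trial term. Signals near the Tag controls limit RPL9, RPL12, RPL13, RPL19, RPL23, RPL29, RPL38 and the 6 members not tested.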
